A study of Mus musculus with 6 samples.

Results

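The data cover the DNA methylation of 5 mouse genes in 3 imprinted clusters whose control regions carry methylation on the copy inherited from the father. These are H19 and Igf2 on chromosome 7, Meg3 and Dlk1 on chromosome 12, and Rasgrf1 on chromosome 9. The domain of each gene was taken as the stretch that begins 15 kb before the annotated 5′ end and closes at the annotated end of the gene (GRCm38, GENCODE M21). A cytosine counted as a member when every one of the 6 libraries covered it with at least 6 reads. This gave 210 of the 646645 nuclear cytosines shared by all libraries: 72 at Igf2, 52 at Dlk1, 47 at Rasgrf1, 32 at Meg3 and 7 at H19. The 5 domains together held 489 cytosines that were listed in at least 1 library, and a single library listed between 306 and 394 of them. The genes stand at chr7:142575529-142578143 (H19, minus strand), chr7:142650766-142666816 (Igf2, minus strand), chr12:109541001-109571726 (Meg3, plus strand), chr12:109452823-109463336 (Dlk1, plus strand) and chr9:89909908-90026977 (Rasgrf1, plus strand).

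The samples were full cerebral cortices of C57BL/6 embryos at embryonic day 16. Conditional knockouts (cKO, genotype Uhrf1 -/-, 3 libraries) were compared with heterozygotes (control, genotype Uhrf1 +/-, 3 libraries). The study deleted Uhrf1 with a Cre recombinase driven from the Emx1 locus, which acts in the dorsal telencephalon, so cells of other origin in a dissected cortex keep the gene. The assay was Ox-RRBS: MspI cuts at CCGG and enriches CpG-rich fragments, an oxidation step removes 5-hydroxymethylcytosine from the signal, and bisulfite then separates methylated from unmethylated cytosines. A level is the percent of reads still read as C. The labels do not say which embryos were littermates, so a p-value here reflects the variation among the sequenced libraries. The strain is inbred, so reads could not be assigned to the maternal or the paternal copy. A level near the middle of the scale can come from 1 methylated and 1 unmethylated copy or from a mixture of cells, and these cannot be told apart here.

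The library labelled control replicate 1 stood apart. Over all shared cytosines the mean level was 19.6, 19.4 and 15.8% in cKO replicates 1, 2 and 3, against 15.6, 39.4 and 38.9% in control replicates 1, 2 and 3. Control replicate 1 therefore lay at the level of the cKO libraries while keeping the label of a control. The comparisons are given with all 6 libraries and without that library, and the choice to leave it out was made after its level was known. Coverage summed over the listed cytosines was 18238737 to 31019082 per library, with a median of 13 to 17 reads per cytosine. A read counts in these sums at each cytosine it covers, so they exceed the number of reads.

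Imprinted genes are transcribed from the copy of 1 parent, and the choice is kept by methylation that is set in the germ line and copied at each cell division. UHRF1 binds DNA that is methylated on the old strand only and brings in DNMT1, the enzyme that methylates the new strand. H19 is a long non-coding RNA and Igf2 a fetal growth factor. The H19 control region upstream of H19 is methylated on the paternal copy, and on the unmethylated maternal copy it binds CTCF and shields the Igf2 promoters from shared enhancers. Meg3 is a maternally expressed long non-coding RNA, and Dlk1, a transmembrane relative of the Notch ligands, is expressed from the paternal copy. Both are governed by a germ-line methylated region between them, with a further methylated region over the Meg3 promoter that is gained after fertilisation. Rasgrf1, an exchange factor for Ras expressed in brain, is governed by a methylated region upstream of it. That Rasgrf1 control region lies further upstream than 15 kb in the mouse, so the domain used here does not include it.

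Sequences that held the cytosines on which the results turn are printed 5′ to 3′ on the strand of the gene, in GRCm38, with the CpG sites read in all 6 libraries in capitals. The H19 control region (chr7:142581173-142581403, minus strand) is shown because its only 3 shared cytosines lie in this stretch and no other site of the region was read in all libraries. The Meg3 intergenic region (chr12:109528601-109528661, plus strand) is shown because 1 CpG stands for the whole of it. The upstream and downstream sides of the Meg3 promoter (chr12:109540841-109540961 and chr12:109541056-109541091, plus strand) hold 7 of the 12 shared cytosines around the Meg3 5′ end.
H19 control region: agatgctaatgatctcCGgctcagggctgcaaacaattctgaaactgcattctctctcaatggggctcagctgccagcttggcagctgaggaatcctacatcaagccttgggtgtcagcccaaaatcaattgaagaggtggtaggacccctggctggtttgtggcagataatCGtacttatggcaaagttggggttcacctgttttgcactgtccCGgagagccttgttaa
Meg3 intergenic region: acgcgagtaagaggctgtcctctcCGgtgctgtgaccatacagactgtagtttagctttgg
Meg3 promoter, upstream side: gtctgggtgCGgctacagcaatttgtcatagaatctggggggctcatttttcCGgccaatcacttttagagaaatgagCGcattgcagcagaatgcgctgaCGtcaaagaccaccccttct
Meg3 promoter, downstream side: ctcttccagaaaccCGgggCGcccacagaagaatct
The first measured CpG of the H19 stretch, the last one of it, the measured CpG of the Meg3 intergenic stretch, the second measured CpG of the upstream Meg3 stretch and the first of the downstream one are the inner CpGs of CCGG, the site that MspI cuts.

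Stretches outside the control regions are shown for the contrast that they give. The Igf2 upstream stretch (chr7:142669621-142669666, minus strand) kept the highest level of any measured part in the cKO libraries, the Igf2 intron stretch (chr7:142665526-142665601, minus strand) had levels near the middle of the scale in 2 controls, the Dlk1 upstream stretch (chr12:109448493-109448533, plus strand) was the most methylated one of that domain, the Dlk1 last exon stretch (chr12:109459823-109460028, plus strand) is coding, and the Rasgrf1 coding exon stretch (chr9:89953868-89953958, plus strand) lies deep in the gene.
Igf2 upstream: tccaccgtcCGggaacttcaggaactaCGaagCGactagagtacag
Igf2 intron: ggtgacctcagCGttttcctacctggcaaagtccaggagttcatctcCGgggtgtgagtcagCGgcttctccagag
Dlk1 upstream: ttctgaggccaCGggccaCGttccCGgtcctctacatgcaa
Dlk1 last exon: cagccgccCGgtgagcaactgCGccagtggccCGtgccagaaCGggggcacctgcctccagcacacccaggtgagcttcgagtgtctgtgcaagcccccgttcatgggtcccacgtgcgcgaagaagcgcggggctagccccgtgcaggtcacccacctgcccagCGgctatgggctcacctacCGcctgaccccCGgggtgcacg
Rasgrf1 coding exon: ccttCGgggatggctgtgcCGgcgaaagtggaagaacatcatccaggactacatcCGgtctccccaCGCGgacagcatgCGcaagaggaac

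**Figure D1:**
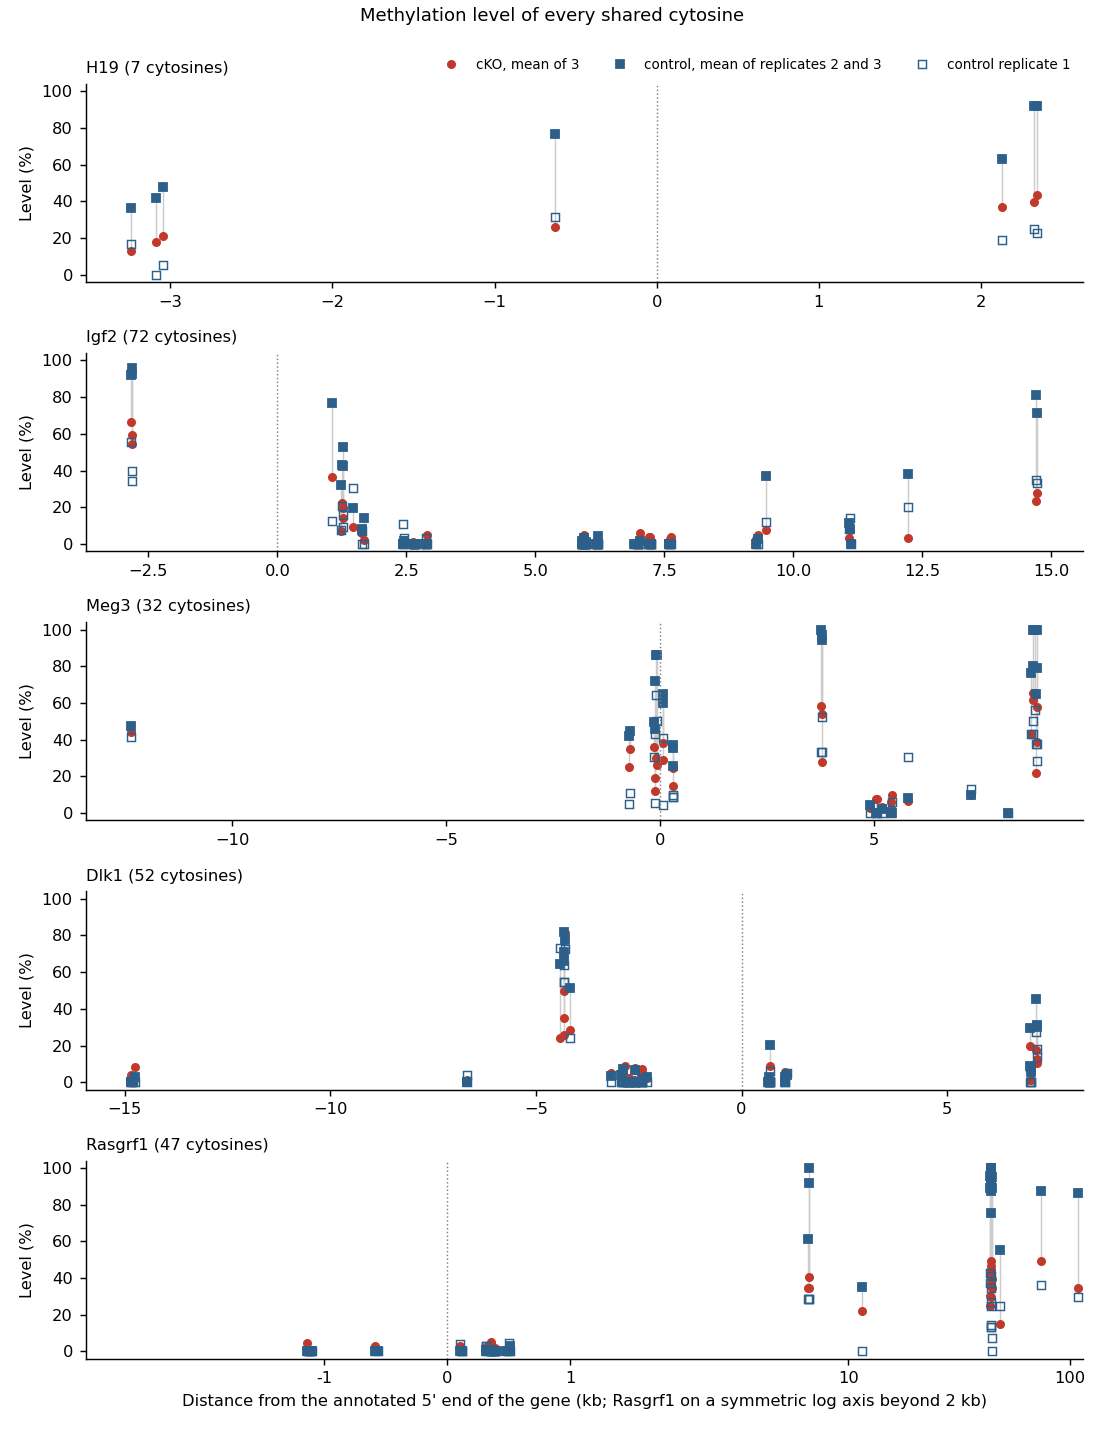
Methylation level (%) of every shared cytosine against the distance from the annotated 5′ end (kb; for Rasgrf1 a symmetric log axis beyond 2 kb), 1 panel per gene. Filled circles are the mean of 3 cKO libraries, filled squares the mean of control replicates 2 and 3, open squares control replicate 1, and grey lines join the first 2 kinds. Levels near 0 fill the Dlk1 and Igf2 CpG clusters and the Rasgrf1 5′ end, and the 7 H19 cytosines all lie higher in control replicates 2 and 3 than in cKO.

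Across the 5 domains, 107 of the 210 cytosines were under 10% in every library, most of them at Igf2 (51), Rasgrf1 (27) and Dlk1 (26). Meg3 had 3 such cytosines and H19 none. The other levels were in the main lower in the cKO libraries than in control replicates 2 and 3. Of the 64 member cytosines whose mean over the 6 libraries was at least 20%, 54 had all 3 cKO libraries below both of these controls, where the background over all such cytosines was 87.4%. With control replicate 1 included, 10 of the 64 had every cKO library below every control, against a background of 16.9%. Over these 64 cytosines the median level was 34.7% in cKO and 77.2% in control replicates 2 and 3, with a median difference of -39.2 points. Over all 309007 such cytosines the medians were 33.2% in cKO and 83.9% in control replicates 2 and 3, with a median difference of -46.0 points. Control replicate 1 had a median of 29.1% over the 64 and of 28.6% over all.

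Reads were tested with a quasi-binomial model fitted over all features, and a feature was called at a Benjamini-Hochberg q under 0.01 with at least 25 points between the group means. With all 6 libraries, 0 of the 90 member windows of 100 bp were called lower in cKO, where the background was 0% of 285466 windows. At an unadjusted p under 0.05 the count was 6 of 90 windows, against a background of 15.2%, and limma on arcsine levels also called 0, against 0%. A plain binomial test, which takes no account of the spread between libraries, called 15 of 90, against 37.5%. Of the 210 single cytosines 0 were called (background 0%), with 8 at an unadjusted p under 0.05 (background 12.9%), 0 by limma (0.00139%) and 24 by the plain binomial test (25.6%). Of the 5 whole domains 0 were called (background 0%), with 1 at an unadjusted p under 0.05 (background 23.7%), 0 by limma (0%) and 0 by the plain binomial test (19.9%). Without control replicate 1, 19 of the 90 windows were called lower, and none higher, against a background of 43.8%. Called windows numbered 6 of 27 at Igf2, 6 of 16 at Rasgrf1, 4 of 20 at Meg3, 3 of 7 at H19 and 0 of 20 at Dlk1. A call needs a control level of at least 25%, which 40 of the 90 windows reached in control replicates 2 and 3. These were 7 at Igf2, 9 at Rasgrf1, 12 at Meg3, 7 at H19 and 5 at Dlk1. All 19 called windows were among these 40, against a background of 67.0% of windows at that level. Single cytosines were called lower at 32 of 210 positions, against a background of 31.9%, with 12 at Rasgrf1, 8 at Igf2, 8 at Meg3, 3 at H19 and 1 at Dlk1. Of the domains taken whole, H19 alone was called lower, against a background of 38.5%. The Igf2, Rasgrf1 and Dlk1 domains were under 25% in control replicates 2 and 3, so a call at 25 points was not possible for them.

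**Figure D2:**
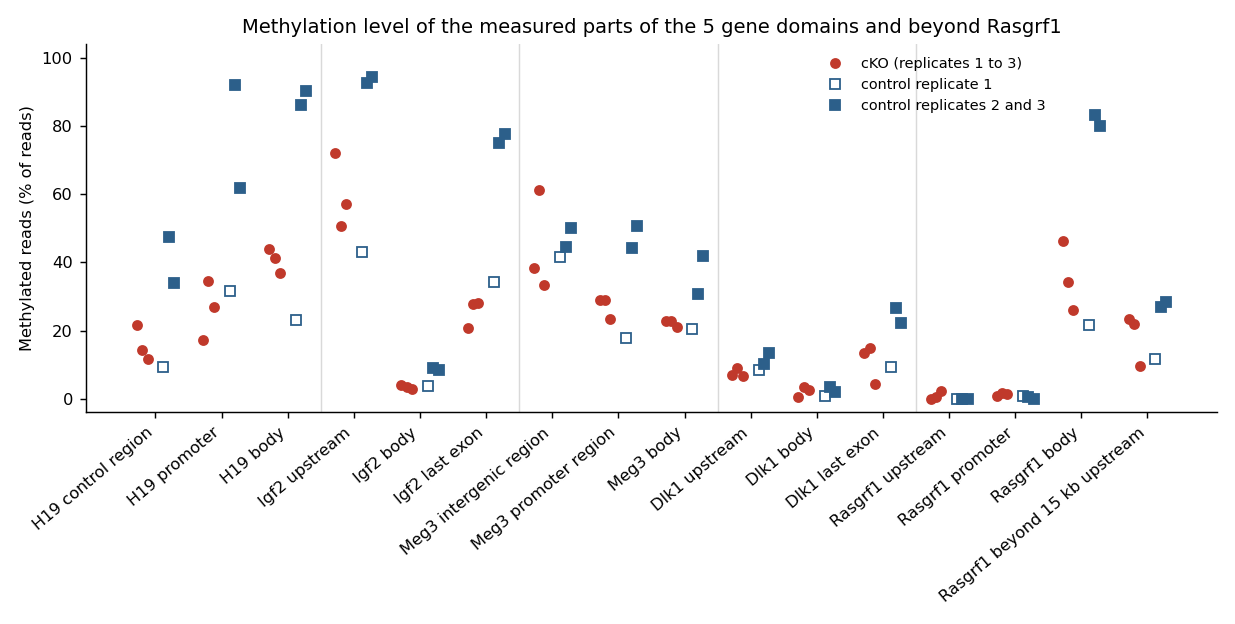
Methylation level (% of reads, summed over the shared cytosines) of the 15 parts of the 5 domains that held a shared cytosine and of the sites beyond 15 kb upstream of Rasgrf1, with 1 point per library: circles for the 3 cKO libraries on the left of each part, squares for the 3 controls on the right, open for control replicate 1. Control replicates 2 and 3 lie above the cKO libraries in most parts, the Meg3 intergenic region overlaps, and the Rasgrf1 5′ end is near 0 in every library.

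H19 had the largest difference among the 5 domains taken whole and was lower in cKO than in control replicates 2 and 3 in each measured part. The order was different over the 64 cytosines set apart above by their mean level, which include all 7 of H19. Their median difference from control replicates 2 and 3 was -26.6 points at H19 and -25.3 points at Dlk1. The falls were larger at Rasgrf1 (-52.3 points), Igf2 (-38.2 points) and Meg3 (-33.7 points). The level over the 7 H19 cytosines was 33.3, 30.4 and 27.6% in cKO replicates 1, 2 and 3, against 16.7, 68.6 and 68.1% in control replicates 1, 2 and 3. Control replicates 2 and 3 lay far above the cKO libraries, and replicate 1 lay below all of them. The difference was -20.7 points with all libraries (q = 0.325, quasi-binomial test) and -37.9 points without control replicate 1 (q = 0.000233). Without control replicate 2 it was -12.0 points, and without control replicate 3 it was -12.2 points. In the H19 control region, 2 to 4 kb upstream of the 5′ end, 3 of 60 CpG sites were shared by all libraries. A further cytosine, 3000 bp upstream, was listed in cKO replicate 3 alone, at 0% on 6 reads, and entered no test. Over the 3 shared cytosines the level was 21.6, 14.4 and 11.7% in cKO replicates 1, 2 and 3, against 9.23, 47.5 and 33.9% in control replicates 1, 2 and 3. This averaged 15.9 ± 5.15% in cKO (SD, n = 3) and 30.2 ± 19.4% in control (SD, n = 3), a difference of -14.3 points that did not exceed the spread (exact permutation test, two-sided p = 0.4). Without control replicate 1 the difference was -24.8 points and the groups did not overlap (exact permutation test, two-sided p = 0.1, the smallest that 3 against 2 libraries allow), and without control replicate 2 it was -5.66 points. Against the mean of control replicates 2 and 3, 39% of the level was left. The Wilson 95% interval from read counting was 13.8 to 32.3% in cKO replicate 1 and 23.3 to 46.3% in control replicate 3, the cKO and control libraries with the fewest reads. These intervals cover counting error only, and no molecular identifiers are described for these reads. Reads were summed over the 3 cytosines, and those at 3044 and 3087 bp upstream lie on the same strand with near-equal counts. A read across both counts at each, so the intervals are too narrow.

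The 3 cytosines of the H19 control region differed in how far the controls agreed. At the position 3244 bp upstream, which had the most reads, the level was 20.5, 10.5 and 8.11% in cKO replicates 1, 2 and 3, against 16.9, 34.3 and 38.7% in control replicates 1, 2 and 3. Both controls other than replicate 1 were above 30% there, and no cKO library reached 21%. At 3044 bp upstream it was 23.5, 19.4 and 20% in cKO replicates 1, 2 and 3, against 5.41, 63.9 and 31.2% in control replicates 1, 2 and 3. Here control replicate 2 was well above replicate 3, and the cKO libraries lay together below both. At 3087 bp upstream the level was 22.2, 17.6 and 14.3% in cKO replicates 1, 2 and 3, against 0, 57.1 and 26.7% in control replicates 1, 2 and 3, again with control replicate 2 the highest. None of the 3 windows that hold these sites was called without control replicate 1, and for the best covered window the difference was -23.4 points (q = 0.00773).

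The H19 gene and promoter had higher control levels than its control region. The promoter cytosine 625 bp upstream was at 17.2, 34.5 and 27% in cKO replicates 1, 2 and 3, against 31.6, 92 and 61.9% in control replicates 1, 2 and 3. The 3 cytosines in the H19 exons gave 44, 41.4 and 36.8% in cKO replicates 1, 2 and 3, against 23.1, 86.1 and 90.2% in control replicates 1, 2 and 3, so that 46.2% of the level of control replicates 2 and 3 was left. At 2326 bp from the 5′ end, the best covered of them, the level was 40.4, 42.9 and 35.8% in cKO replicates 1, 2 and 3, against 25, 88.9 and 95.5% in control replicates 1, 2 and 3. At 2348 bp it was 53.1, 39.1 and 38.7% in cKO replicates 1, 2 and 3, against 22.7, 93 and 90.7% in control replicates 1, 2 and 3. These 2 windows and the promoter window were the called ones without control replicate 1, with differences of -52.5, -48.2 and -50.7 points. The third H19 exon cytosine, at 2131 bp, was at 33.3, 44 and 33.3% in cKO replicates 1, 2 and 3, against 18.8, 52.9 and 73.3% in control replicates 1, 2 and 3 and its window was not called (q = 0.171). Around the H19 5′ end itself no cytosine was shared by all libraries. The cytosines there that 4 libraries listed, on 7 to 14 reads, were at 0 to 28.6% in cKO replicates 1 and 3, against 12.5 to 50% in control replicates 2 and 3. Other sites there, 22, 48 and 61 bp upstream, were listed only in cKO replicate 2, at 33.3, 50 and 50% on 6 reads, and in control replicate 1, at 25, 11.1 and 11.1% on 8 or 9 reads. The site at 61 bp is the other strand of the CpG at 62 bp, which was at 0% in cKO replicates 1 and 3. These sites entered no test.

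**Figure D3:**
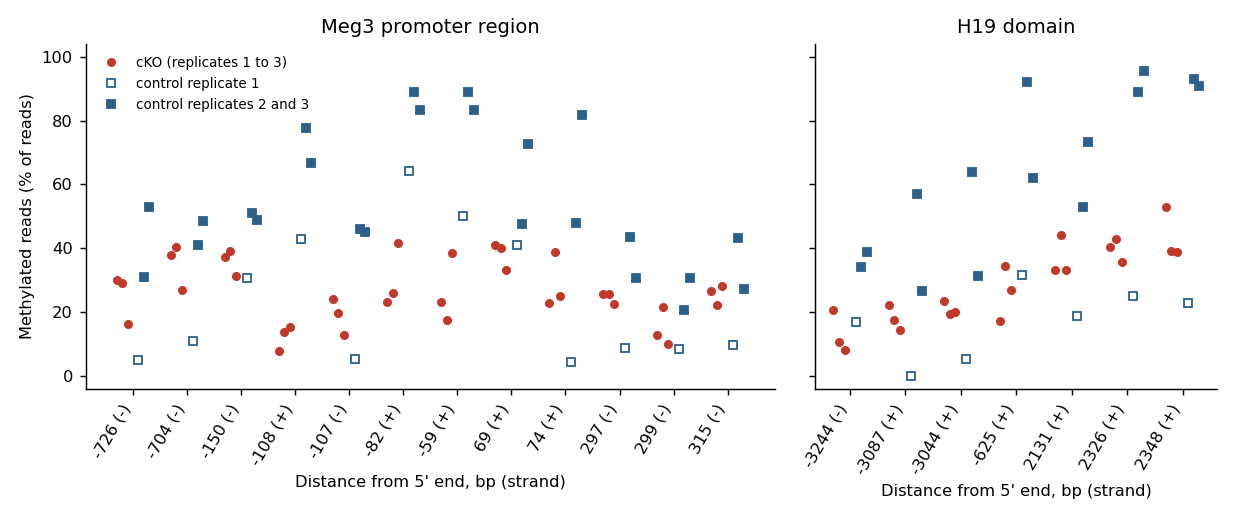
Methylation level (% of reads) of the 12 shared cytosines of the Meg3 promoter region and the 7 of the H19 domain, by distance from the 5′ end (bp) and strand, with cKO libraries as circles left and controls as squares right (open for replicate 1). The cKO points lie between 7.69 and 41.7% in the Meg3 promoter region, and control replicate 1 lies below all cKO points at 5 of the 7 H19 sites.

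Igf2 had little methylation at most of its measured cytosines, and windows at its few methylated ones were called lower in cKO when control replicate 1 was left out. Its domain stood at 9.77, 5.66 and 5.72% in cKO replicates 1, 2 and 3, against 7.54, 19 and 15.9% in control replicates 1, 2 and 3, a difference of -7.11 points with all libraries (q = 0.211) and -10.4 points without control replicate 1 (q = 0.000472). The sites sit in dense CpG clusters inside the gene, and a further annotated gene on the same strand, Gm49394, covers nearly the whole of Igf2 and starts further upstream, beyond the 3 cytosines described next, so values there cannot be assigned to 1 of these genes. The 3 cytosines 2818 to 2841 bp upstream were at 72.1, 50.7 and 57.1% in cKO replicates 1, 2 and 3, against 43, 92.7 and 94.3% in control replicates 1, 2 and 3. This was the highest level of any part in the cKO libraries, with 64.2% of the level of control replicates 2 and 3 left. Its window was called lower without control replicate 1 (difference -33.5 points, q = 1.33e-05). The best covered cytosine of them, 2818 bp upstream, was at 67.1, 46.7 and 50% in cKO replicates 1, 2 and 3, against 34, 94.4 and 97.1% in control replicates 1, 2 and 3. No Igf2 promoter cytosine was shared by all libraries.

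In the Igf2 last exon, in the untranslated part, 2 cytosines gave 20.7, 27.9 and 28.1% in cKO replicates 1, 2 and 3, against 34.2, 75 and 77.6% in control replicates 1, 2 and 3. This was the only part of the 5 domains in which all 3 cKO libraries were below all 3 controls, with means of 25.6 ± 4.21% in cKO (SD, n = 3) and 62.3 ± 24.3% in control (SD, n = 3) (exact permutation test, two-sided p = 0.1, the smallest that 3 against 3 libraries allow). For single cytosines with a mean of at least 20%, the background of such a separation was 16.9%. The 2 cytosines lie on the same strand with near-equal read counts, so they may stem largely from the same reads. At the cytosine 14699 bp from the 5′ end the level was 25.8, 13.6 and 31% in cKO replicates 1, 2 and 3, against 35, 72.5 and 89.7% in control replicates 1, 2 and 3, on 20 to 40 reads. Its window had the largest fall at Igf2 without control replicate 1 (-57.6 points, q = 0.000369), followed by that of the neighbouring cytosine at 14732 bp (-44 points, q = 0.00248) and that of the intron cytosine at 1049 bp (-40.1 points, q = 0.0091). The remaining 67 Igf2 body cytosines summed to 3.95, 3.47 and 2.77% in cKO replicates 1, 2 and 3, against 3.59, 9.02 and 8.4% in control replicates 1, 2 and 3. Within them the intron window of 4 cytosines between 1227 and 1277 bp stood at 22.6, 13.7 and 11% in cKO replicates 1, 2 and 3, against 11.5, 36.6 and 47.9% in control replicates 1, 2 and 3, which lies near the middle of the scale in control replicates 2 and 3 and was called without replicate 1 (q = 3.51e-05). The best covered cytosine of the Igf2 body is the first of this window, at 1227 bp, and was at 15.5, 6 and 0% in cKO replicates 1, 2 and 3, against 7.58, 19.3 and 44.7% in control replicates 1, 2 and 3. Over the window as a whole, control replicate 1 lay among the cKO libraries. The remaining Igf2 window at 25% or more in control replicates 2 and 3, at 12228 bp, was not called. It was at 7.14, 0 and 3.33% in cKO replicates 1, 2 and 3, against 20, 66.7 and 10% in control replicates 1, 2 and 3. Control replicate 2 alone was high there, on 6 reads.

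Meg3 was read at 1 intergenic cytosine, 12 promoter cytosines and 19 cytosines of the gene. In the Meg3 intergenic region, 12 to 15 kb upstream, 1 of 101 CpG sites was shared by all libraries, 12376 bp upstream. Its level was 38.5, 61.1 and 33.3% in cKO replicates 1, 2 and 3, against 41.7, 44.4 and 50% in control replicates 1, 2 and 3. The groups overlapped, the means were 44.3 ± 14.8% in cKO (SD, n = 3) and 45.4 ± 4.24% in control (SD, n = 3), and the difference was -1.07 points (exact permutation test, two-sided p = 1). The difference turned to 1.85, 4.42 and 1.25 points without cKO replicate 1, cKO replicate 3 and control replicate 3. Coverage was 9 to 18 reads, and the Wilson 95% interval was 16.3 to 56.3% in cKO replicate 3 and 18.9 to 73.3% in control replicate 2, so a difference of the size seen at H19 was not resolvable at this site in a single library. A pair of cytosines closer to Meg3 was listed in 5 libraries. At 12155 bp upstream the level was 42.9 and 53.8% in cKO replicates 1 and 3, against 37.5, 72.7 and 100% in control replicates 1, 2 and 3. At 12131 bp upstream it was 47.6 and 23.1% in cKO replicates 1 and 3, against 46.7, 36.4 and 100% in control replicates 1, 2 and 3, with 6 reads behind each value of 100%. Further out, 4 cytosines of the plus strand 14283 to 14323 bp upstream were listed in only cKO replicate 3, at 16.7 to 42.9% on 6 or 7 reads, and control replicate 2, at 75 to 100% on 8 reads. Their read counts were near-equal, so they may stem largely from the same reads. Cytosines of the minus strand 14264 to 14306 bp upstream were listed in cKO replicate 3 alone, at 33.3 to 66.7% on 6 reads each. Neither these nor the 12155 and 12131 bp sites entered a test.

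The Meg3 promoter region, read at 12 cytosines, was lower in cKO than in control replicates 2 and 3, with methylation left in every cKO library. The level was 28.9, 28.9 and 23.3% in cKO replicates 1, 2 and 3, against 17.9, 44.3 and 50.7% in control replicates 1, 2 and 3, with means of 27 ± 3.24% in cKO (SD, n = 3) and 37.6 ± 17.3% in control (SD, n = 3). With all libraries the difference of -10.6 points was within the spread (exact permutation test, two-sided p = 0.4). Without control replicate 1 it was -20.4 points with no overlap between the groups (exact permutation test, two-sided p = 0.1, the smallest possible), and without control replicate 3 it was -4.08 points. Against control replicates 2 and 3, 56.9% of the level was left. At 10 of the 11 cytosines of this region with a mean of at least 20%, every cKO library was below both of these controls. The background over all such cytosines was 87.4%. The best covered one, 150 bp upstream, was at 37.4, 39 and 31.3% in cKO replicates 1, 2 and 3, against 30.8, 50.9 and 48.8% in control replicates 1, 2 and 3. The window of 3 cytosines that holds it was the best covered of those not called (difference -23.2 points, q = 0.00154), and missed the 25 points rather than the q. The neighbouring window, 59 to 82 bp upstream, was at 23.1, 21.7 and 40% in cKO replicates 1, 2 and 3, against 57.1, 88.9 and 83.3% in control replicates 1, 2 and 3 and was called without control replicate 1 (difference -57.8 points, q = 0.00128). In that window control replicate 1 was above the cKO libraries.

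The Meg3 body held both methylated and unmethylated sites. Over its 19 cytosines the level was 22.7, 22.7 and 21.1% in cKO replicates 1, 2 and 3, against 20.5, 30.7 and 41.8% in control replicates 1, 2 and 3. An exon window at 3770 to 3792 bp was at 50, 35.9 and 42.9% in cKO replicates 1, 2 and 3, against 33.3, 97.2 and 100% in control replicates 1, 2 and 3, and an intron window at 8823 to 8826 bp was at 48.4, 53.7 and 43.7% in cKO replicates 1, 2 and 3, against 33.3, 88.9 and 88.6% in control replicates 1, 2 and 3. Both were called without control replicate 1, with differences of -55.7 and -40.2 points, and the remaining called Meg3 window, 8715 to 8788 bp, lay beside the second of them. The best covered Meg3 body cytosine, at 5399 bp in an exon, was at 0, 11.6 and 7.06% in cKO replicates 1, 2 and 3, against 0, 1.64 and 0% in control replicates 1, 2 and 3. This belongs to a run of exon sites between 4908 and 5433 bp that were under 15% in every library. The whole Meg3 domain stood at 25.9, 26 and 22.2% in cKO replicates 1, 2 and 3, against 19.6, 37 and 45.9% in control replicates 1, 2 and 3, with a difference of -9.43 points with all libraries (q = 0.372) and -16.7 points without control replicate 1 (q = 0.00315). It was -3.57 points without control replicate 3 and -3.80 points at a coverage minimum of 20.

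Dlk1 had the lowest level of the 5 in control replicates 2 and 3 and no called window. Its domain was at 7.01, 8.93 and 5.59% in cKO replicates 1, 2 and 3, against 6.94, 11.8 and 13.2% in control replicates 1, 2 and 3. The differences were -3.48 points with all libraries and -5.34 points without control replicate 1 (q = 0.023). Methylated sites formed 2 groups. In the first, 4175 to 4419 bp upstream, 6 cytosines were methylated in every library. The window of 4 of them was at 52.9, 41.7 and 44.8% in cKO replicates 1, 2 and 3, against 60, 85 and 62.2% in control replicates 1, 2 and 3. Here control replicate 1 was above all cKO libraries, at the side of the other controls, as it was at the cytosine 4419 bp upstream, which was at 7.69, 30 and 35.3% in cKO replicates 1, 2 and 3, against 73.3, 50 and 78.9% in control replicates 1, 2 and 3. Coverage at these sites was 9 to 41 reads, and the differences without control replicate 1 did not pass (q = 0.0286 for the window). The second group was in the last exon, which is coding there. Its 7 cytosines gave 13.4, 14.9 and 4.46% in cKO replicates 1, 2 and 3, against 9.38, 26.6 and 22.3% in control replicates 1, 2 and 3, with 44.6% of the level of control replicates 2 and 3 left. The best covered of them, at 7166 bp, was at 22, 20.3 and 11.1% in cKO replicates 1, 2 and 3, against 27.3, 45.9 and 44.7% in control replicates 1, 2 and 3 and was the only Dlk1 cytosine called without control replicate 1 (q = 0.00746). Its window holds no other shared cytosine, and in the test of windows the same reads were not called (q = 0.0141). The window at 7185 to 7196 bp, the best covered methylated window that was not called, was at 16, 16.8 and 2.27% in cKO replicates 1, 2 and 3, against 15.9, 30.9 and 31.1% in control replicates 1, 2 and 3. The best covered upstream cytosine, at 2444 bp, was at 3.08, 0 and 0% in cKO replicates 1, 2 and 3, against 0, 0 and 0% in control replicates 1, 2 and 3. The Dlk1 body was at 0.459, 3.43 and 2.58% in cKO replicates 1, 2 and 3, against 0.943, 3.53 and 2.01% in control replicates 1, 2 and 3, its best covered cytosine, at 1061 bp, being at 0% in every library but cKO replicate 3 (13.3%), and no Dlk1 promoter cytosine was shared by all libraries.

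Rasgrf1 was close to 0% at its 5′ end, and 6 windows inside the gene were called lower in cKO when control replicate 1 was left out. Its promoter, read at 22 cytosines, was at 0.81, 1.68 and 1.36% in cKO replicates 1, 2 and 3, against 0.769, 0.391 and 0% in control replicates 1, 2 and 3. All 3 cKO libraries were above all 3 controls there by a mean of 0.896 points (exact permutation test, two-sided p = 0.1, the smallest possible). The 6 cytosines 1095 to 1136 bp upstream were at 0, 0.616 and 2.25% in cKO replicates 1, 2 and 3, against 0, 0 and 0% in control replicates 1, 2 and 3. The 103 to 320 reads of a control were summed over these 6 cytosines, so a read that spans several of them counts at each. A count of 0 among 103 independent reads would allow a level of up to 2.91%. The best covered site, 1095 bp upstream, had 25, 54 and 18 reads in control replicates 1, 2 and 3, so the true limit is higher. In the Rasgrf1 body, 19 cytosines gave 46.3, 34.3 and 26% in cKO replicates 1, 2 and 3, against 21.6, 83 and 80% in control replicates 1, 2 and 3, with 43.6% of the level of control replicates 2 and 3 left. The cKO libraries also differed among themselves, replicate 1 being the highest and replicate 3 the lowest. The 3 windows with the largest falls without control replicate 1 lay 43646 to 44262 bp into the gene. The first, in an intron, was at 45.2, 10 and 26.9% in cKO replicates 1, 2 and 3, against 40, 84.6 and 100% in control replicates 1, 2 and 3, and the second, in a coding exon, was at 39.4, 37.5 and 30.2% in cKO replicates 1, 2 and 3, against 37.8, 90.9 and 96.9% in control replicates 1, 2 and 3. The third, in an intron, was at 47.2, 25.2 and 38.7% in cKO replicates 1, 2 and 3, against 7.5, 91.4 and 91.7% in control replicates 1, 2 and 3. Their differences were -64.9, -58.2 and -54.5 points (q = 0.000668, 5.55e-06 and 7.2e-06). The best covered body cytosine, at 108490 bp, was at 48.7, 30.2 and 25.6% in cKO replicates 1, 2 and 3, against 29.6, 78.2 and 94.1% in control replicates 1, 2 and 3. The intron window at 11522 bp was not called and was at 45.8, 20 and 0% in cKO replicates 1, 2 and 3, against 0, 15.4 and 54.5% in control replicates 1, 2 and 3, with overlap between the groups. The whole domain stood at 16.4, 10.03 and 7.52% in cKO replicates 1, 2 and 3, against 5.9, 22.8 and 23.5% in control replicates 1, 2 and 3, a difference of -6.11 points with all libraries (q = 0.37) and -11.9 points without control replicate 1 (q = 0.00607). Without control replicates 2 and 3 in turn it was -3.41 and -3.05 points.

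Beyond the domain, between 15 and 40 kb upstream of Rasgrf1, 7 further cytosines were shared by all libraries. They summed to 23.4, 21.9 and 9.7% in cKO replicates 1, 2 and 3, against 11.7, 27 and 28.4% in control replicates 1, 2 and 3, and the groups overlapped through control replicate 1. The 2 furthest of them had levels near the middle of the scale. At 31593 bp upstream the level was 36.6, 42.9 and 23.5% in cKO replicates 1, 2 and 3, against 45.5, 36.4 and 45.5% in control replicates 1, 2 and 3, and at 31631 bp upstream it was 39, 20 and 16.7% in cKO replicates 1, 2 and 3, against 27.3, 21.4 and 54.5% in control replicates 1, 2 and 3. At both the groups overlapped, on 11 to 41 reads. The best covered of the 7, 23993 bp upstream, was at 15.8, 20 and 0% in cKO replicates 1, 2 and 3, against 0, 21.4 and 36.4% in control replicates 1, 2 and 3. Whether these sites belong to the Rasgrf1 control region was not tested, since no annotation of it was used.

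The share of methylation left at the control and promoter regions was set beside all windows with 2 or more cytosines at a like control level. Over the 3370 windows at 40 to 50% in control replicates 2 and 3, the median share left in cKO was 45.1%, and the lower and upper quartiles were 34.9 and 57.1%. The H19 control region, with 39.0% left, lay inside that range, and the Meg3 promoter region, with 56.9% left, lay at its upper edge. The single Meg3 intergenic cytosine, with 93.8% left, lay above it. That share rests on 1 cytosine with 9 to 18 reads per library, and its groups overlapped. Its place against windows of 2 or more cytosines is therefore uncertain. For windows at 70 to 80% the quartiles were 33.6 and 48.1%. The single H19 promoter cytosine, with 34.1% left, and the Igf2 last exon, with 33.5% left, stood near the lower one. For windows at 80 to 90% the median share left was 40.7%, and the H19 body stood at 46.2% and the Rasgrf1 body at 43.6%. For windows at 90 to 100% it was 44.0%, with quartiles at 35.9 and 55.7%, and the Igf2 upstream stretch stood at 64.2%. The level of control replicates 2 and 3 both placed the windows and divided each share, and no test was made of these positions. Promoters of maternally methylated imprinted genes gave a further comparison. Of 15 such genes 8 were measured, and 6 were at 25% or more in control replicates 2 and 3. In these 6 the share left was 57.1 to 98.1%, with a median of 73.0%. Control replicates 2 and 3 were far apart at Mcts2 (55.8 and 32.4%), Zrsr1 (47.5 and 32.6%) and Nnat (39.6 and 58.0%). They were closer at Peg13 (50.8 and 52.6%). Several of these shares therefore depend on which control is used. The highest share was left at Airn, the non-coding RNA of the Igf2r cluster, which was at 55.1, 45.6 and 39.9% in the cKO libraries, against 34.5, 41.9 and 53.8% in the control libraries. The lowest was left at Peg10, a gene derived from a retrotransposon, which was at 49.1, 37.1 and 44.9% in the cKO libraries, against 40.4, 79.7 and 73.3% in the control libraries. The promoter of Zdbf2, from the remaining paternally methylated cluster, was at 0.678, 1.4 and 1.04% in the cKO libraries, against 0.521, 0.517 and 0.552% in the control libraries. With almost no methylation in any control, this interval gives no share left to set beside the others.

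**Figure D4:**
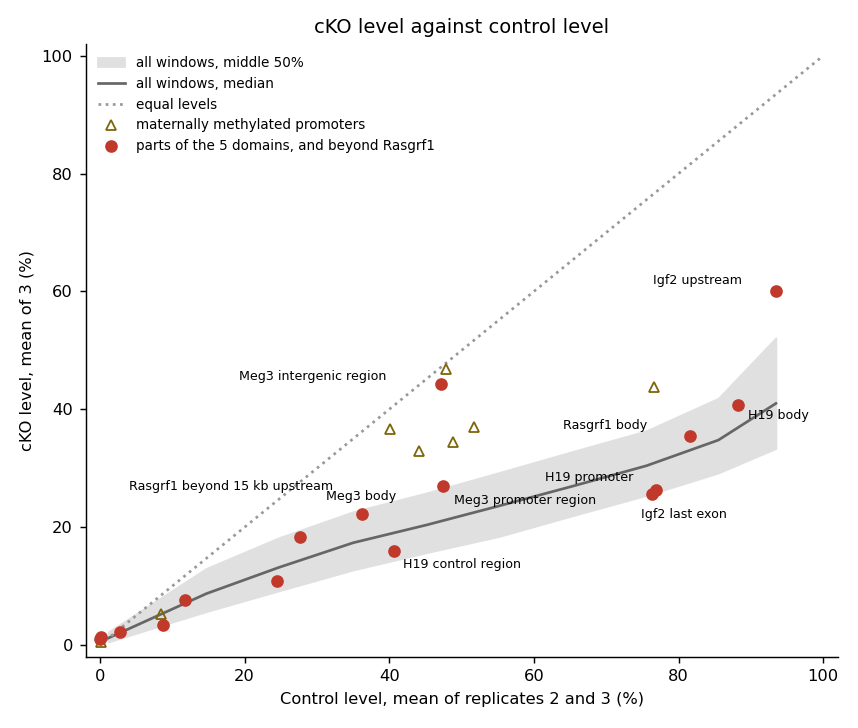
Mean level of the 3 cKO libraries (%) against the mean level of control replicates 2 and 3 (%). Circles are the 15 measured parts of the 5 domains and the sites beyond 15 kb upstream of Rasgrf1, triangles the promoters of maternally methylated imprinted genes, the grey line the median and the grey band the range between the lower and upper quartile of all 100 bp windows with 2 or more cytosines in each 10-point step of the control level, and the dotted line equal levels. The H19 control region lies within the band, and the H19 promoter and the Igf2 last exon lie near its lower edge. The Igf2 upstream stretch and the Meg3 intergenic cytosine lie above it, the latter on 9 to 18 reads per library.

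Genes around the 3 clusters were measured in the same way, from a list of 28 of which 27 had at least 3 shared cytosines. With all libraries 0 of 27 were called lower by the quasi-binomial test, with 8 at an unadjusted p under 0.05 (background 23.7% of gene domains), 0 by limma (0%) and 6 by the plain binomial test (19.9%). Without control replicate 1, 9 of 27 were called lower, against the background of 38.5% over all gene domains. The median level of the 27 was 18.2% in cKO and 37.8% in control replicates 2 and 3, and that of all 25500 gene domains was 15.1% in cKO and 35.6% in control replicates 2 and 3. The largest fall was at Mirg, a long non-coding host of microRNAs downstream of Meg3, which was at 41.3, 28.7 and 32.4% in the cKO libraries, against 25.8, 87.1 and 89.6% in the control libraries. Th, the rate-limiting enzyme of catecholamine synthesis, was at 34.8, 34.4 and 23.9% in the cKO libraries, against 24.6, 78 and 81.4% in the control libraries. Rian, a non-coding RNA that hosts small nucleolar RNAs, was at 43.7, 42.1 and 30.2% in the cKO libraries, against 35.6, 82.7 and 84.3% in the control libraries. Rtl1, a retrotransposon-derived gene, was at 43.7, 43 and 30.6% in the cKO libraries, against 35.4, 82.6 and 84% in the control libraries, and its interval overlaps that of Rian. Ppp2r5c, a regulatory subunit of protein phosphatase PP2A and the best covered of the genes not called, was at 21.3, 19.1 and 14.3% in the cKO libraries, against 16.4, 39.8 and 40.2% in the control libraries, where the difference of -21.8 points missed the 25 points.

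**Figure D5:**
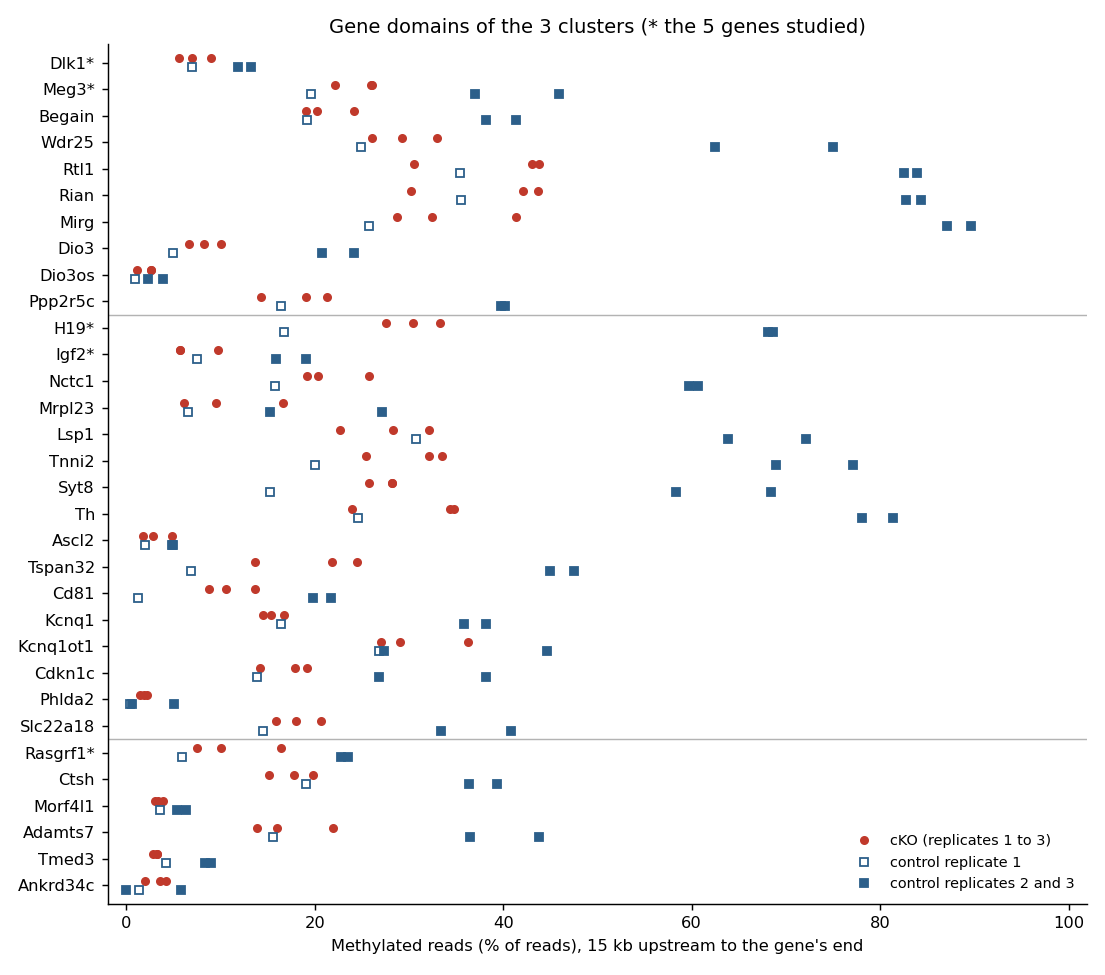
Methylation level (% of reads from 15 kb upstream to the end of the gene) of the 5 genes, marked with an asterisk, and of 27 genes around them, grouped by cluster. Circles above are the 3 cKO libraries and squares below the 3 controls, open for replicate 1. Mirg, Rian, Rtl1 and Th show the widest gaps between cKO and control replicates 2 and 3, and Dio3os, Ascl2 and Phlda2 are low in every library.

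Both strands of a CpG were read at 9 sites of the domains, 4 at Dlk1, 3 at Igf2 and 1 each at Meg3 and Rasgrf1. At the Meg3 site 107 to 108 bp upstream, the plus strand was at 7.69, 13.6 and 15.4% in cKO replicates 1, 2 and 3, against 42.9, 77.8 and 66.7% in control replicates 1, 2 and 3, on 6 to 22 reads. The minus strand was at 24.1, 19.7 and 12.9% in cKO replicates 1, 2 and 3, against 5.26, 46.2 and 45% in control replicates 1, 2 and 3, on 38 to 83 reads. The strands differed most in control replicate 1, and in both strands control replicates 2 and 3 were above every cKO library. At the Dlk1 site 4305 to 4306 bp upstream, the plus strand was at 68.8, 47.6 and 33.3% in cKO replicates 1, 2 and 3, against 54.5, 76.9 and 65% in control replicates 1, 2 and 3. The minus strand was at 66.7, 76.9 and 100% in cKO replicates 1, 2 and 3, against 72.7, 100 and 55% in control replicates 1, 2 and 3, on 9 to 20 reads. In cKO replicate 3 the strands of this site were 66.7 points apart. At the better covered Igf2 intron site at 1262 to 1263 bp the strands were 1.44 to 3.35 points apart in the cKO libraries and 11.5 to 13.1 points apart in the controls.

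Letters of known binding motifs were counted on both strands of the control regions. GGNGGCAG, the core of the CTCF motif, had 5 matches in the 2001 bp of the H19 control region, where 54.8% of 25500 genes had at least 1 in the same interval and 0.478% had as many. It had 0 in the 3001 bp of the Meg3 intergenic region, where 66.5% of genes had at least 1, and 0 in the Meg3 promoter region, where 59.9% did. TGCCGC, the motif bound by ZFP57 when methylated, had 5 matches in the H19 control region (16.2% of genes with at least 1 and 0.114% with as many), 9 in the Meg3 intergenic region (23.9% with at least 1 and 0.0196% with as many) and 1 in the Meg3 promoter region (41.8%). In the H19 control region 1 TGCCGC match overlapped a GGNGGCAG match. No measured cytosine fell within any of these matches, so the levels above say nothing of the motif sites themselves. CCGG occurred 3 times in the H19 control region, 5 times in the Meg3 intergenic region and 8 times in the Meg3 promoter region.

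Genes on other chromosomes with the most similar levels over the 6 libraries were found among domains with at least 20 cytosines. For H19 these were Tbc1d22b and Bin2, whose levels differed from those of H19 by a mean of 1.80 and 1.89 points per library over 13522 genes compared. For Meg3 they were Lrrc8b and Ldlrad3 (1.61 and 2.00 points, 14171 genes), for Dlk1 Cdhr1 and Cfap20 (0.684 and 0.699 points, 14171 genes), for Igf2 4930415O20Rik and P2rx6 (0.647 and 0.746 points, 13522 genes) and for Rasgrf1 Spry1 and Gm43820 (1.14 points each, 13850 genes), which are overlapping domains. These are matches of level over 6 libraries and carry no test.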

How the data were processed

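Ox-RRBS libraries from 6 embryonic cortices (3 cKO, 3 control) were analysed. Per the submitters' processing notes and the study's methods, reads were mapped to GRCm38 with Genomatix software, keeping perfect matches alone, and methylation was called with methylKit. The authors deposited 1 table per library with the coverage of each cytosine as a read count and the share of C and of T as a percent. Every listed cytosine had at least 6 reads. Coverage summed over listed cytosines was 18238737 to 31019082 per library, with a read counted at each cytosine it covers, and median coverage was 13 to 17 reads. Methylated reads were recovered as the rounded product of coverage and percent, which returned the deposited percent within 0.005 points. On the assembled chromosomes, each of the listed nuclear cytosines was the C of a CpG in the reference genome.

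Cytosines with at least 6 reads in all 6 libraries were kept. Counts were tested with a quasi-binomial F test with empirical Bayes moderation of the dispersion (floor of 1), run in Python 3.11.15 with scipy 1.17.1 and tested on simulated data, over all windows of 100 bp, all cytosines and all gene domains with at least 3 cytosines, with Benjamini-Hochberg adjustment over each. A feature was called at q under 0.01 and 25 points. Parts of domains were compared with an exact permutation test over libraries, two-sided, for which 3 against 3 cannot give a p under 0.1. The domain model moderates the dispersion over genes, so its q can pass where the exact test cannot. Alternatives were other coverage minimums, thresholds, window sizes, limma 3.58.1, a plain binomial test, a replicate block and each library left out.

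Named windows were up to 3 per domain with the largest fall among those called (without control replicate 1, since none was called with all libraries) and the best covered methylated one not called. Named cytosines were the best covered of each part of a domain. Other cytosines were named after their values were seen: those of the H19 and Dlk1 upstream sites, the H19 and Meg3 sites listed in fewer libraries, the far Rasgrf1 sites, the strand pairs and further called windows. Named neighbouring genes were up to 4 with the largest fall among those called and the best covered one not called. The members and lists were chosen with earlier results of these data known.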

Additional observations from a re-analysis of the deposited data

How the results depend on the processing

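With all 6 libraries the counts of 0 windows, 0 cytosines and 0 domains lower in cKO were the same under both coverage minimums, q under 0.05, 10 points, the dispersion of each feature alone and limma, as were those of windows at 500 bp and of cytosines with strands summed. The replicate block also left 0 calls. The correlations of same-numbered deviations were -0.19, 0.056 and -0.24. For each cKO replicate, the correlations with control replicates 2 and 3 were alike and opposite in sign to that with control replicate 1. They followed the outlying library, so they could not show or exclude a pairing by replicate number. The plain binomial test called 15 windows, 24 cytosines and 6 neighbouring genes. Control replicate 1 decided the calls. Without it 19 windows, 32 cytosines, 1 domain and 9 neighbouring genes were lower, and leaving out each library in turn gave 0 to 19 windows, 0 to 32 cytosines, 0 to 1 domains and 0 to 9 neighbouring genes. The H19 domain difference ranged from -37.9 to -12.0 points and was called only without control replicate 1. The Rasgrf1 domain was -1.88 points at a coverage of 10 and turned to 0.55 at 20, where its promoter alone remained. The Meg3 domain was -5.72 points at 10, and the Igf2 domain -11.1 at 20 and -4.67 without control replicate 2. Of the 15 measured parts and the sites beyond Rasgrf1, 12 of 16 kept their direction throughout. The Meg3 intergenic region turned to 1.85, 4.42 and 1.25 points without cKO replicate 1, cKO replicate 3 and control replicate 3 (range over libraries left out -9.47 to 4.42), the Dlk1 body to 0.843 and 0.679 without cKO replicate 1 and control replicate 2 (range -0.641 to 0.843), the Rasgrf1 sites beyond 15 kb to 0.284 without cKO replicate 3 (range -9.39 to 0.284), and Dlk1 upstream to 3.44 at a coverage of 20. The cause was not tested. With settings added after seeing the data, all without control replicate 1, 12 of 67 windows (48.6% of all windows) and 17 of 157 cytosines (37.1% of all) were called at a coverage of 10, 6 of 27 (55.7%) and 10 of 53 (45.9%) at 20, 25 windows (52.2%) and 42 cytosines (37.4%) at q under 0.05, 21 windows (44.7%), 35 cytosines (32.2%) and 4 domains (60%) at 10 points, and 19 windows (44.3%), 32 cytosines (32.0%) and 1 domain (38.8%) on autosomes alone. Coverage left 6 of 21 parts with no shared cytosine, and 3 and 1 cytosines for the 60 and 101 CpG sites of the H19 control and Meg3 intergenic regions.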
